A study of Mus musculus with 16 samples.

Results

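Translocation junctions of RP105-stimulated mouse splenic B cells were compared between 3 libraries labelled ATM-deficient (ATM-/-) and 3 libraries labelled WT, chosen by label and stimulus out of the 16 libraries of the series. The 6 libraries hold 47693 of 141167 junctions, and 7562 of these lie outside chromosome 15. All came from IgM+ splenic B cells of 129sv mice aged 6 to 8 weeks. Both groups carried a cassette of 25 I-SceI sites in the first intron of c-myc on 1 allele, received an antibody to RP105 at 2 µg/mL, were infected after 48 h with a retrovirus that expresses I-SceI and GFP, and were collected on day 5. DNA was cut with HaeIII, ligated to an adapter, blocked with EcoRV and XbaI and read on a MiSeq instrument after nested PCR. The same genotype contrast under anti-CD40 (1 µg/mL) with IL4 (20 ng/mL), infected after 24 h and collected on day 4, serves for comparison with 4 libraries labelled WT and 3 labelled ATM-deficient. Those were read on a 454 instrument, so stimulus, schedule and instrument differ together between these contrasts. Anti-CD40 libraries with the ATM inhibitor KU55933 (10 µM, 3 libraries) were read on MiSeq.

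High-throughput genome-wide translocation sequencing (HTGTS) starts from a known break, here the I-SceI cuts in Myc, and reads which genomic end (the prey) was joined to it. Most prey ends lie near the break itself, and others mark breaks elsewhere in the genome. ATM is the kinase that signals double-strand breaks and helps hold broken ends together until they are joined; B cells that lack it keep some Igh breaks unjoined, which leaves broken chromosome 12 ends. RP105 (CD180) is a surface receptor of B cells, and antibodies to it drive proliferation, while anti-CD40 with IL4 also induces class switching at Igh. A junction list measures no RNA or protein, so neither the genotype nor the cell type could be checked. Of the genes that mark other cells, none of 3 T cell genes and 1 of 3 myeloid genes held a junction, which says nothing on the cells present. No junction of the 6 libraries carried the name Atm, and 1 did in the whole series, which checks nothing about the deletion. The libraries are called by their labels below.

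The WT libraries 1, 2 and 3 held 7278, 4484 and 11627 junctions, and the ATM libraries held 6304, 7342 and 10658. The labels do not say whether these came from separate mice, so p-values measure the spread between the samples, which may be technical. The libraries came from 3 sequencing runs as the read names give them, of which 2 held both groups. WT library 3 and ATM library 3 came from the same run and share 190 prey positions beyond 1 Mb of the break that no other library holds, against 0 to 20 positions shared by the other pairs of RP105 libraries. Both ends of the prey agreed for 184 of these. They make up 10.0% of the junctions of ATM library 3 outside chromosome 15 and 4.65% of those of WT library 3. How they came to be shared was not tested, and the main results are given with and without them. Another pair read in the same run, KU55933 libraries 1 and 2, shared 254 positions beyond 1 Mb. The remaining pairs from the same run shared 0 to 14.

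The first difference lay in how many junctions stayed close to the break. Within 1 Mb of it lay 63.1%, 65.8% and 63.6% of the junctions of the WT libraries and 88.7%, 87.3% and 86.0% of those of the ATM libraries. All ATM libraries were higher, with means of 87.3% ± 1.4 and 64.2% ± 1.4 (SD, n = 3 each). The difference was 23.2 percentage points by a two-sided exact permutation test with p = 0.1, the smallest that 3 against 3 libraries can give, and adjusted p = 0.168 over 104 such tests. Among the 104 measures of share, strand and structure, the groups did not overlap in 59.6%. The difference was 22.2 points within the run that holds WT library 2 with ATM libraries 1 and 2, 22.4 within the run that holds both replicate 3 libraries, and 23.3 without the shared positions. Counted over distinct positions it was 27.5 points, because 52.8% to 68.6% of the junctions of a library within 1 Mb repeat a position of that library. Repeated positions near the break may be separate events or copies of 1, and the lists do not separate these.

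Under anti-CD40 with IL4 the order of the labels was the other way round. There 78.7% ± 2.43 (SD, n = 4) of the WT junctions and 54.5% ± 4.26 (n = 3) of the ATM junctions lay within 1 Mb (exact permutation p = 0.0286, the smallest that 4 against 3 libraries can give). Outside chromosome 15 lay 223, 213 and 215 of each 1000 junctions in the WT RP105 libraries and 93.0, 101 and 108 in the ATM RP105 libraries. The anti-CD40 means were 170 ± 17.4 for WT and 315 ± 28.7 for ATM. The ATM RP105 libraries therefore had fewer junctions outside chromosome 15 than any other group named here, and the WT RP105 libraries lay between the anti-CD40 groups.

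Chromosome 15 was divided into 10 classes by distance and side of the break, which was placed at position 61818883 of mouse build mm9. These classes were fitted together with the 29 regions outside chromosome 15, with all junctions as library size, by edgeR's quasi-likelihood test. Of 39 regions, 32 (82.1%) passed an adjusted p of 0.05, 3 higher (7.69%) and 29 lower (74.4%) in the ATM libraries. The median log2 difference over all 39 was -1.06, and in shares of 1 total a gain next to the break lowers the others. With TMM or DESeq2 scaling 12 regions passed, 5 higher and 7 lower.

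The 3 regions that rose were the classes within 1 Mb telomeric of the break, and with all junctions counted the rise sat on plus-strand junctions. Within 10 kb on that side, plus-strand junctions numbered 455, 549 and 503 per 1000 in the WT libraries and 753, 744 and 746 in the ATM libraries. The groups did not overlap, and the edgeR log2 difference was 0.57 (SE 0.12, adjusted p = 2.50e-04). In this fit by strand, 37 of 49 regions (75.5%) passed. Plus-strand junctions at 10 to 100 kb numbered 4.81, 4.01 and 5.59 per 1000 in the WT libraries and 14.4, 15.7 and 10.3 in the ATM libraries, a log2 difference of 1.43 (SE 0.28, edgeR adjusted p = 1.35e-04). At 100 kb to 1 Mb they numbered 1.79, 2.68 and 2.58 against 7.46, 8.85 and 5.91, a log2 difference of 1.64 (SE 0.29, edgeR adjusted p = 3.68e-05). In both classes every ATM library exceeded every WT library, and the log2 differences were larger than within 10 kb. Minus-strand junctions of the same classes did not pass, with log2 differences of 0.11 (SE 0.17) within 10 kb, -0.69 (SE 0.38) at 10 to 100 kb and -0.64 (SE 0.28) at 100 kb to 1 Mb. Per 1000 distinct positions, however, those within 10 kb were also higher in the ATM libraries. They numbered 27.9, 25.4 and 28.0 in WT and 38.7, 37.3 and 42.1 in ATM, with no overlap (exact permutation p = 0.1).

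The strand make-up of this side differed with it. Between 10 kb and 1 Mb telomeric of the break, 58.5%, 66.7% and 66.9% of the WT junctions (of 82, 45 and 142) and 85.7%, 92.8% and 87.4% of the ATM junctions (of 161, 194 and 198) were on the plus strand. The difference was 24.6 percentage points with no overlap (exact permutation p = 0.1, the smallest possible, adjusted p = 0.168). Under anti-CD40 with IL4 the WT libraries held the higher share, 89.7% ± 1.35 against 61.9% ± 8.15 in the ATM libraries. Outside chromosome 15 the share was near even in both RP105 groups, 49.5% ± 0.52 in WT and 50.7% ± 1.5 in ATM.

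**Figure D1:**
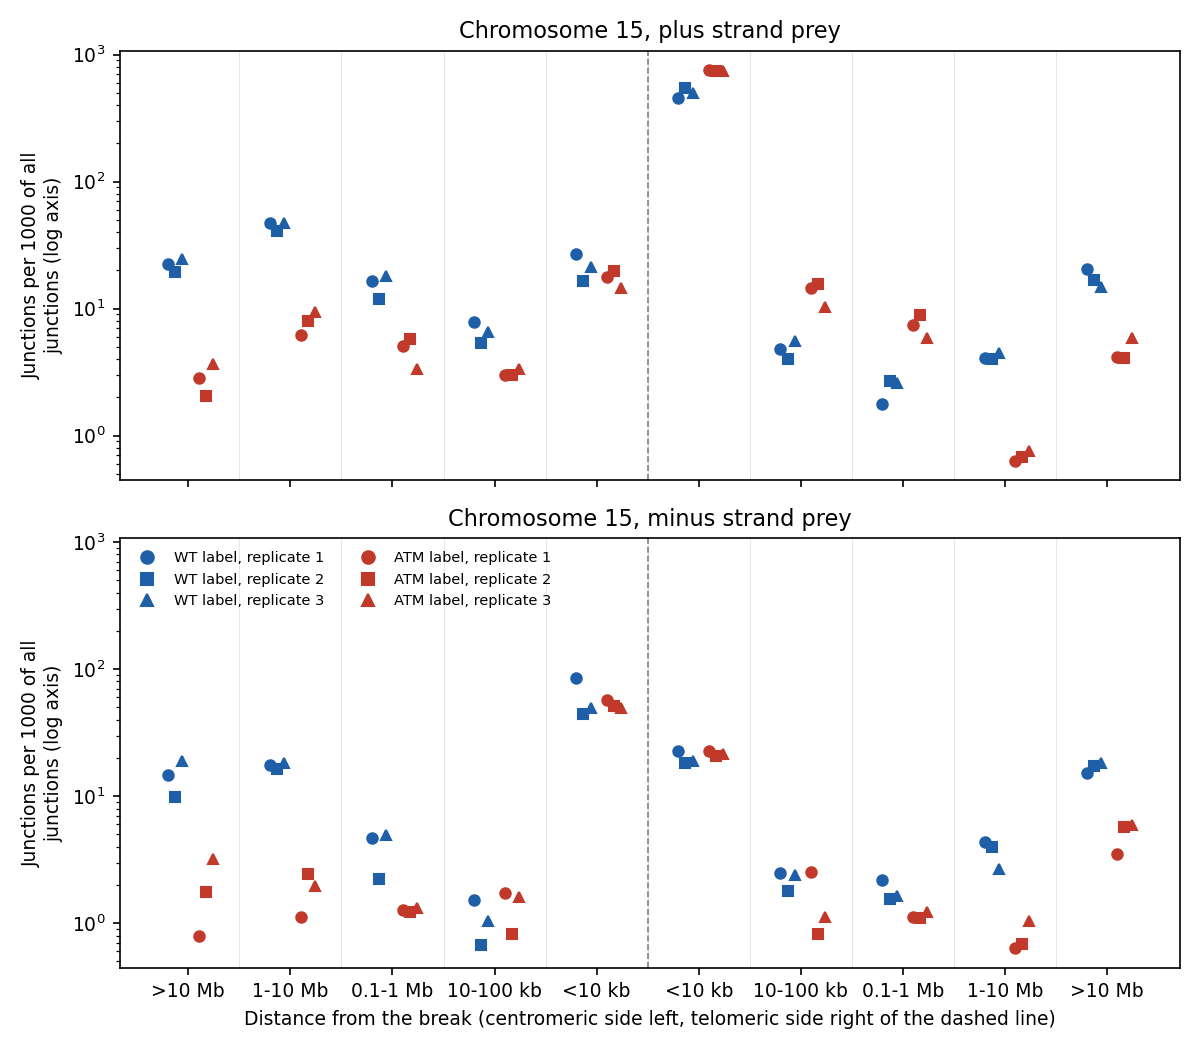
Junctions per 1000 of all junctions (log axis) in 10 distance classes of chromosome 15, for plus-strand prey (upper panel) and minus-strand prey (lower panel). Each point is 1 of the 6 RP105 libraries; ATM libraries are higher for plus-strand junctions from the break to 1 Mb telomeric, and lower in every class beyond 1 Mb on both strands.

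The plus-strand junctions within 10 kb also lay farther from the break in the ATM libraries. More than 1 kb away were 26.1%, 21.0% and 25.1% of them in the WT libraries and 36.4%, 36.5% and 32.4% in the ATM libraries. The means were 24.1% ± 2.7 and 35.1% ± 2.3 (SD, n = 3 each, exact permutation p = 0.1, adjusted p = 0.168). The median distance was 690.5, 667.5 and 698 bp in WT and 804, 798 and 775 bp in ATM. No ATM library overlapped a WT library in either measure. Beyond 2 kb the means were 18.3% and 27.9%, and beyond 3 kb 7.38% and 11.8%. Counted over distinct positions, the mean share beyond 1 kb was 52.9% in WT and 66.4% in ATM. Under anti-CD40 with IL4 the medians ran from 721.5 to 770 bp in WT and from 655 to 690 bp in ATM, again with the labels in the opposite order.

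**Figure D2:**
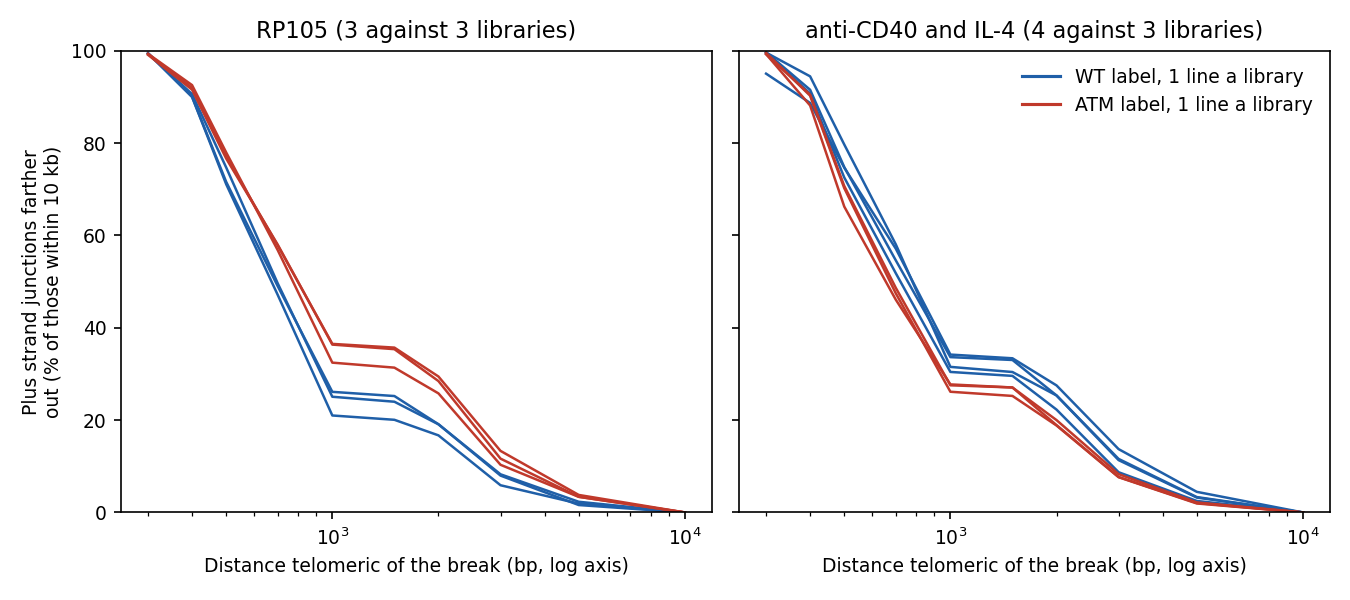
Percentage of plus-strand junctions within 10 kb telomeric of the break that lie farther out than the distance on the log axis (bp), 1 line a library, RP105 left and anti-CD40 with IL4 right. Under RP105 the ATM lines lie above the WT lines at 1 kb (means 35.1% and 24.1%), and under anti-CD40 with IL4 the WT lines lie above (32.4% and 27.1%).

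Centromeric of the break the ATM libraries fell, and more so with distance. At 1 to 10 Mb the WT libraries had 64.4, 57.1 and 65.7 junctions per 1000 and the ATM libraries 7.30, 10.5 and 11.4, a WT mean 6.41 times the ATM mean. The log2 difference was -2.66 (SE 0.19, edgeR adjusted p = 2.33e-12). Beyond 10 Mb the libraries had 37.0, 29.2 and 43.4 against 3.65, 3.81 and 6.85 per 1000, a log2 difference of -2.89 (SE 0.23, edgeR adjusted p = 1.02e-11). At 100 kb to 1 Mb the difference was -1.75 (SE 0.19, edgeR adjusted p = 3.89e-09). None of these 3 classes overlapped between the groups. At 10 to 100 kb the difference was -0.77 (SE 0.25, edgeR adjusted p = 0.00706), but with TMM scaling it was 0.28 and did not pass. Within 10 kb on the centromeric side the libraries overlapped, with 112, 60.7 and 71.0 against 75.0, 71.4 and 64.3 per 1000 and a log2 difference of -0.22 (SE 0.20, edgeR adjusted p = 0.337). There TMM scaling gave 0.87 (adjusted p = 0.00680), and the value without WT library 1 was 0.086, so this class has no settled direction.

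On the telomeric side the distant classes fell as well. The log2 difference was -2.36 (SE 0.28, edgeR adjusted p = 2.86e-08) at 1 to 10 Mb and -1.79 (SE 0.17, edgeR adjusted p = 1.74e-10) beyond 10 Mb. Beyond 10 Mb the WT libraries had 35.6, 34.3 and 33.3 and the ATM libraries 7.61, 9.81 and 11.8 junctions per 1000. The rise next to the break thus gave way to a fall beyond 1 Mb. In the centromeric 1 to 10 Mb class, 72.7%, 71.1% and 72.0% of WT junctions and 84.8%, 76.6% and 82.8% of ATM junctions were on the plus strand, with no overlap (difference 9.47 points, exact permutation p = 0.1, adjusted p = 0.168).

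The genes named here, among those with most chromosome 15 junctions beyond 1 Mb, all had fewer in the ATM libraries. They were picked by junctions summed over both RP105 groups, and most junctions there are WT, so the choice favours a low ATM count. The classes they lie in fell as a whole, with log2 differences of -2.66 and -2.89 centromeric and -2.36 at 1 to 10 Mb telomeric. Nsmce2, a SUMO ligase of the SMC5/6 complex whose junctions lie between -2.61 and -2.39 Mb from the break, held 15, 17 and 50 junctions in the WT libraries and 3, 6 and 12 in the ATM libraries. Per 10000 junctions that is 35.1 for WT and 8.64 for ATM. Mtss1, an actin-binding scaffold, held 63 WT and 25 ATM junctions, and Ext1, which builds heparan sulfate chains, held 41 and 3. Samd12 (41 and 9), Sntb1, a syntrophin (38 and 7), the repressor Zhx2 (39 and 5), Csmd3 (26 and 4) and the GATA-type repressor Trps1 (23 and 4) lie on the same centromeric side. Asap1, an Arf GTPase-activating protein telomeric of the break, held 24 and 4, and 82.1% of its junctions were on the plus strand. Single chromosome 15 genes were not tested.

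Junctions of several genes pile up at sites that resemble the I-SceI recognition sequence. Dense clusters were defined as at least 20 junctions over all 16 libraries with gaps of at most 100 bp, beyond 1 Mb of the break and outside Igh. Of 22 such clusters, 8 held a stretch that matches at least 13 of the 18 bases of the recognition site on either strand, and the other 14 matched at most 12. The cluster rule and the threshold were chosen after the values were seen. The 7 stretches outside chromosome 15 are shown so that the resemblance can be read base by base. They are given 5′ to 3′ on the plus strand of mm9 as the reads in the files give them, with capitals for the bases that equal the recognition site of the cassette:
Mmp24, chr2:155631469-155631508: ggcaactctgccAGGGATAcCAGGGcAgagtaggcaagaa
no gene name, chr1:31667672-31667711: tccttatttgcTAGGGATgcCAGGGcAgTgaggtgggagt
Apbb1, chr7:112727854-112727880: gcattgtctaaAcTgCCCTGTTATCCC
Fermt2, chr14:46096815-46096854: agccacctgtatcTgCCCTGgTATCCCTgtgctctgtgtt
no gene name, chr1:137751636-137751665: atTacCCCTGTTATCCCTAgggaacagggg
Gucy2f, chrX:138520776-138520815: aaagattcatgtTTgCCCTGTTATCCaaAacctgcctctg
Scd2, chr19:44375497-44375526: aTAGGGATAACAGGGTcATctactgcatcc

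The Scd2 site matches 17 of 18 bases, the second chromosome 1 site 15, the first chromosome 1 site and those at Apbb1 and Gucy2f 14, and those at Mmp24 and Fermt2 13. The Apbb1 stretch ends where the reads end. The files place these sites by gene name only, so exon or intron is not given here. Of the 427 junctions in all 8 clusters, 318 lie within 50 bp of the matched stretch. A match of letters does not show that the enzyme cut there.

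These clusters differed less between the labels than other junctions did. They made up 5.50, 6.24 and 4.82 of each 1000 junctions in the WT libraries and 3.49, 4.36 and 4.13 in the ATM libraries. The means were 5.52 ± 0.71 and 3.99 ± 0.45 (SD, n = 3 each), so the ATM mean was 0.72 times the WT mean, with no overlap. Per 1000 distinct positions, which count repeats near the break once, the means were 8.58 and 8.46 and the groups overlapped. Junctions outside chromosome 15 that were neither in such a cluster nor of the kinds described next numbered 195, 182 and 191 against 66.6, 75.9 and 86.0, an ATM mean 0.40 times the WT mean, or 0.56 times over distinct positions. Mmp24, a membrane-bound matrix metalloproteinase, held 13, 10 and 8 WT and 8, 8 and 7 ATM junctions in its cluster. The Fermt2 cluster (Fermt2 encodes kindlin-2, an integrin activator) held 10 and 13 and the Apbb1 cluster 12 and 13, with the WT libraries first. At Scd2, a stearoyl-CoA desaturase gene, the cluster held 3, 1 and 3 WT junctions and none in the ATM libraries. The difference between the clusters and other junctions was not tested.

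Outside chromosome 15 the clearest difference was on chromosome 12, centromeric of Igh, where the ATM libraries had fewer junctions. Of 29 regions outside chromosome 15, with junctions outside that chromosome as library size, 4 (13.8%) passed an edgeR adjusted p of 0.05. The region centromeric of Igh held 196, 108 and 307 WT junctions and 23, 27 and 66 ATM junctions. That is 12.1%, 11.3% and 12.3% of the WT and 3.93%, 3.63% and 5.71% of the ATM junctions outside chromosome 15, with no overlap. The log2 difference was -1.37 (SE 0.15, edgeR adjusted p = 5.75e-09), and -1.47 without the positions shared by the replicate 3 libraries. The direction near Igh is opposite to that under anti-CD40 with IL4, where the shares were 3.17% ± 0.64 in WT and 8.70% ± 1.4 in ATM and the log2 difference was 1.48 (edgeR adjusted p = 1.70e-10). The contrasts share no library, and the difference between them was -2.85 (edgeR adjusted p = 1.21e-13), with 3 of 29 regions (10.3%) passing that test.

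Per 10000 of all junctions, the lower level ran along the chromosome from Igh to 70 Mb away. In the 5 Mb next to Igh the WT libraries had at least 14.01 junctions per Mb per 10000 of all junctions and the ATM libraries at most 2.81. The means were 14.8 ± 1.1 and 1.92 ± 0.78 (SD, n = 3 each), a ratio of 7.68. Between 5 and 10 Mb the means were 9.14 and 0.48 (106 and 7 junctions), and between 10 and 15 Mb 4.99 and 0.46 (59 and 6 junctions). Between 30 and 45 Mb the means were 2.11 and 0.41, a ratio of 5.15, and between 45 and 70 Mb 0.62 and 0.17, a ratio of 3.67. In the rest of the chromosome the ratio was 1.71, with means of 0.67 ± 0.18 and 0.39 ± 0.083. On this base junctions outside chromosome 15 as a whole were 2.15 times as many in WT. Per 1000 junctions outside chromosome 15, the ratio of WT to ATM was 3.62 in the first 5 Mb (6.81 ± 0.59 and 1.88 ± 0.64 per Mb), 1.68 at 45 to 70 Mb and 0.79 in the rest of the chromosome (0.31 ± 0.077 and 0.39 ± 0.085), where the direction turned. Per Mb per 10000 of all junctions, the ATM anti-CD40 libraries had 14.5 ± 2.3, 8.56 ± 2.9 and 5.46 ± 1.1 in the first 3 windows. These were the high values of that contrast. On the same base of all junctions the WT anti-CD40 libraries had 2.29 ± 0.57, 0.79 ± 0.57 and 0.69 ± 0.25. These side-by-side values were read on different instruments and were not tested window by window.

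**Figure D3:**
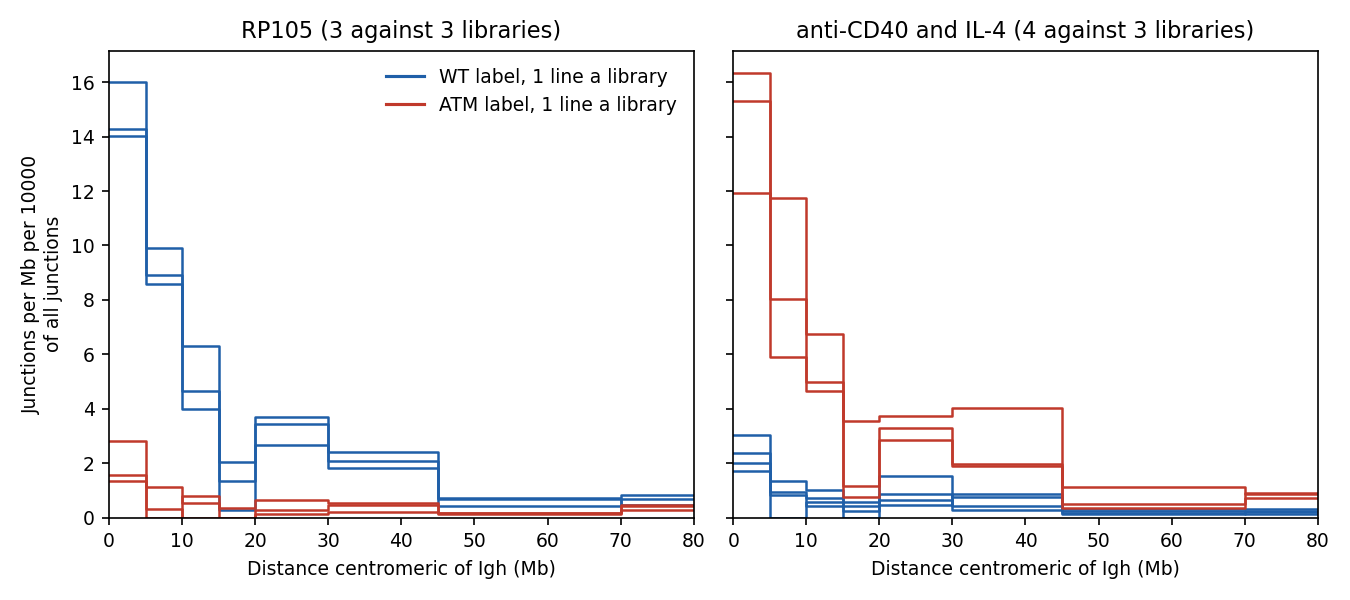
Junctions per Mb per 10000 of all junctions by distance centromeric of Igh (Mb), 1 line a library, RP105 left and anti-CD40 with IL4 right. In the 5 Mb next to Igh the group means under RP105 are 14.8 per Mb for WT and 1.92 for ATM. Under anti-CD40 with IL4 the ATM libraries are the high ones, with a mean of 14.5.

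Among 455 bins of 5 Mb outside chromosome 15, 2 (0.44%) passed, and both lie on chromosome 12. The bin from 105 to 110 Mb held 37, 19 and 52 WT junctions and 1, 2 and 7 ATM junctions (log2 difference -2.40, SE 0.46, edgeR adjusted p = 8.06e-05). The bin from 100 to 105 Mb held 26, 10 and 29 against 0, 3 and 4 (log2 difference -2.17, SE 0.53, edgeR adjusted p = 0.00886). The call of the latter was lost without WT library 1 (adjusted p = 0.115), without ATM library 1 (0.1205), without ATM library 3 (0.0713) and with sequencing run as a block (0.358). Foxn3, Nrxn3 and Wdr25 of chromosome 12 were among the genes with most WT junctions but not among those with most ATM junctions. That choice favours a low ATM count, and none of them passed in the fit of genes. Foxn3, a forkhead repressor in the 100 to 105 Mb bin, held 7, 0 and 4 WT junctions and none in the ATM libraries. Over the 3 ATM libraries, 0 of 2486 junctions allows a share of up to 0.121%, beside a WT share of 0.217%. That limit covers the counting error of the ATM libraries only, so it gives no smallest fold, and WT library 2 held none either. Farther from Igh, Nrxn3, which encodes a neurexin of synapses, held 10 and 1, and Wdr25, nearer to Igh, held 8 and 2.

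Inside Igh the numbers were small. The constant and switch part held 16, 15 and 34 WT junctions and 15, 1 and 16 ATM junctions, or 0.985%, 1.57% and 1.36% against 2.56%, 0.134% and 1.38% of the junctions outside chromosome 15. The groups overlapped, ATM library 2 was the lowest and ATM library 1 the highest, and the log2 difference was 0.01 (SE 0.39, edgeR adjusted p = 1). With all junctions as library size it was -1.07 (SE 0.40, edgeR adjusted p = 0.0163), a call lost without WT library 3 (adjusted p = 0.0530), without ATM library 2 (0.116), with sequencing run as a block (0.0503) and with TMM scaling (log2 difference -0.03). Under anti-CD40 with IL4 this part held 12.8% ± 1.3 of the WT and 5.83% ± 1.0 of the ATM junctions. So the chromosome 12 difference under RP105 lay beside Igh, while the switch regions themselves gave no call among junctions outside chromosome 15.

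By switch region, Smu, the donor of class switching, held 6, 4 and 7 WT and 8, 0 and 5 ATM junctions. Sg3 held 2, 5 and 2 against 1, 0 and 0, and Sg1 held 1, 0 and 5 against 4, 0 and 1. Sg2a held 2 WT and 1 ATM junction, Sg2b 0 and 1, Se 4 and 0, and Sa none in either group. Over the 7 regions the libraries held 38 WT and 21 ATM junctions, and 6 regions were tested with none called. The loci of V(D)J recombination held few as well. The D-J part of Igh held 12 WT and 2 ATM junctions and the V part 7 and 1. Igk, a light chain locus, held 9, 3 and 18 against 2, 2 and 4 (log2 difference -0.85, SE 0.70, edgeR adjusted p = 0.726). Igl held 1, 2 and 4 WT junctions and 0 in each ATM library (edgeR adjusted p = 0.214), and 0 of 2486 allows a share of up to 0.121%. These tests took junctions outside chromosome 15 as library size. With all junctions, the D-J part (log2 difference -2.45, edgeR adjusted p = 0.0192), Igk (-1.90, 0.00830) and Igl (-4.47, 0.00925) passed. The V part did not (-2.50, edgeR adjusted p = 0.0582). On that base 32 of 39 regions (82.1%) passed, with a median log2 difference of -1.06.

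Chromosomes 1, 10 and 19 gave the other calls of this comparison. Chromosome 1 held 8.00%, 7.85% and 8.69% of the WT and 12.8%, 11.7% and 14.2% of the ATM junctions outside chromosome 15 (log2 difference 0.66, SE 0.11, edgeR adjusted p = 8.00e-06). Chromosome 10 held 4.56%, 4.498% and 4.41% against 8.87%, 6.45% and 4.76% (0.49, SE 0.17, edgeR adjusted p = 0.0438), and chromosome 19 held 4.495%, 3.87% and 3.73% against 2.73%, 2.42% and 2.42% (-0.68, SE 0.21, edgeR adjusted p = 0.0286). None of the 3 overlapped between the groups. These are shares of the junctions outside chromosome 15, and with all junctions as library size the log2 differences were -0.44, -0.58 and -1.77, so those of chromosomes 1 and 10 change sign with the base. The chromosome 10 call was lost without any 1 of WT libraries 1, 2 and 3 (edgeR adjusted p = 0.0969, 0.0706 and 0.138) or of ATM libraries 1 and 2 (0.454 and 0.131). The chromosome 19 call was lost without WT library 1 (0.0969), ATM library 2 (0.110) or ATM library 3 (0.155). With sequencing run as a block neither passed (0.167 and 0.0654).

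A kind of junction that moved with the first of these was prey that starts in a CA repeat, a run of at least 10 alternating C and A bases (or G and T) in its first 20 bases. Such starts were 9.11%, 10.5% and 7.85% of the WT and 22.0%, 18.95% and 16.003% of the ATM junctions outside chromosome 15. Per 1000 of all junctions they were close, at 20.3, 22.3 and 16.9 in WT and 20.5, 19.2 and 17.4 in ATM (exact permutation p = 0.8), so their higher share went with fewer other junctions outside chromosome 15. Per 1000 distinct positions, however, they were 31.2, 34.7 and 28.3 against 42.0, 40.2 and 42.6, with no overlap (exact permutation p = 0.1). An example from ATM library 1 and another from ATM library 2, in Rgs20, are shown because such a start carries little sequence that is particular to its place. The CA run is in capitals from its first A, and the c before it belongs to the run too (mm9, plus strand):
no gene name, chr1:4451721-4451760: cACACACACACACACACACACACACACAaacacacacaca
Rgs20, chr1:4967019-4967058: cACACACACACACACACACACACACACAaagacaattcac

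Chromosome 1 held 155 of the WT and 163 of the ATM CA starts, which were 36.7% and 50% of its junctions, and on chromosome 10 they were 21.1% and 42.6%. Without CA starts the log2 difference of chromosome 1 was 0.47 (edgeR adjusted p = 0.0220) and that of chromosome 10 0.19 (adjusted p = 0.749), while chromosome 12 centromeric of Igh stayed at -1.42. Under anti-CD40 with IL4 CA starts were 0.728% of the WT and 0.588% of the ATM junctions outside chromosome 15. Positions outside chromosome 15 that recur in at least 4 of the 16 libraries, 44 in all, were slightly lower on average, with 3.57, 4.24 and 3.01 per 1000 in WT and 2.86, 3.13 and 2.25 in ATM, and the groups overlapped. Per 1000 distinct positions the means turned, to 5.71 in WT and 5.98 in ATM. The most widespread of them lie in Plcd3, a phospholipase C, and in Ddah1, and each was found in 13 libraries. How such positions arise was not tested.

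**Figure D4:**
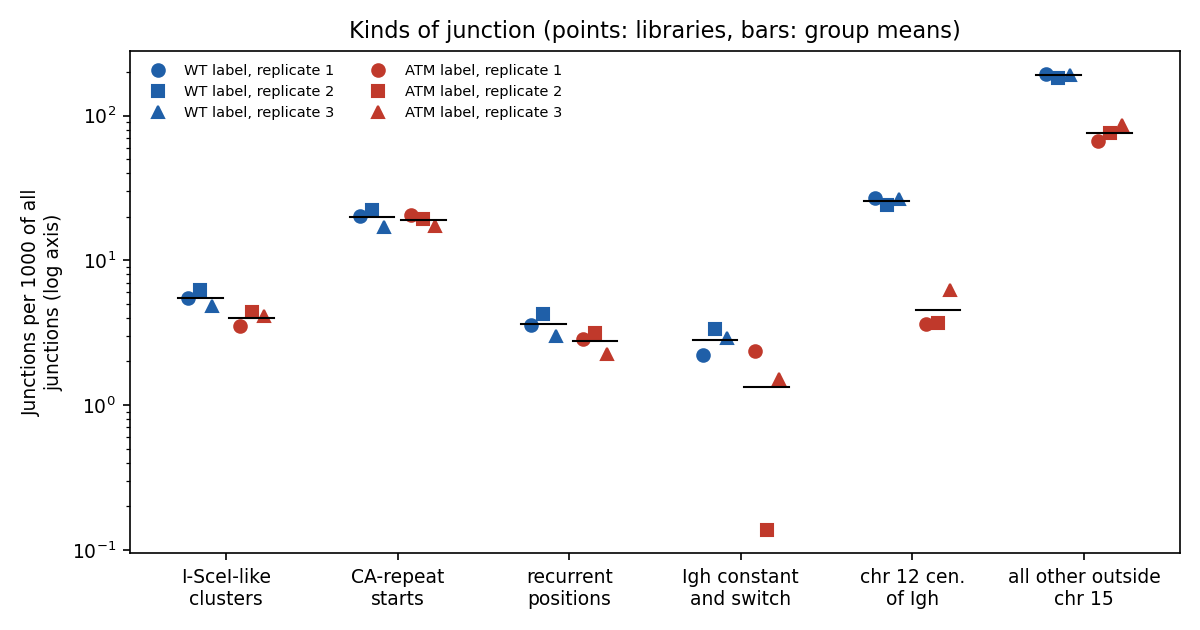
Junctions per 1000 of all junctions (log axis) by kind, with points for the 6 RP105 libraries and bars for group means. CA-repeat starts per 1000 of all junctions overlap between the labels (means 19.8 and 19.01), I-SceI-like clusters differ slightly (5.52 and 3.99), and chromosome 12 centromeric of Igh (25.8 and 4.51) and all other junctions outside chromosome 15 (189 and 76.2) are lower in the ATM libraries; the last kind includes those of chromosome 12 and Igh.

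By gene name, 0 of 162 genes with at least 10 junctions passed (0.0%), with 4 at an unadjusted edgeR p under 0.05, 14 with TMM scaling and 0 with DESeq2. The 4 were Foxn3, Irf4, Fermt2 and Hydin, all at an edgeR adjusted p of 0.635. Irf4, a transcription factor of B cells, held none in the WT libraries and 2, 1 and 0 in the ATM libraries. Hydin held 1, 1 and 0 in the ATM libraries and none in WT, and for both 0 of 5076 allows a share of up to 0.0591%. Fermt2 held 6, 1 and 5 against 5, 5 and 5 (log2 difference 1.38, SE 0.69). On simulated data only 7.5% of genes changed 4-fold were recovered, so single genes carry little power. The top 12 of each group by junction number had 7 in common. Mmp24 led them (43 WT and 33 ATM junctions), followed by Smu and by Apbb1, which binds the amyloid precursor protein (14 and 14). Fermt2 and Gucy2f, a retinal guanylate cyclase (16 and 10), were also among them. Plcd3 held 10 and 9, Scd2 11 and 2, Kirrel3 5 and 7, Ddah1 5 and 4, Crhr2 3 and 5, and Mpdu1 2 and 4.

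Gene groups were also counted. Off-target genes of AID, the deaminase that starts class switching, held 4, 3 and 18 WT and 5, 6 and 9 ATM junctions, in 20 of 34 genes. None of the 16 tested passed, 8 lay above 0 and their median log2 difference was 0.20, beside 0 for all 162 genes. Among them Il4ra held 4 junctions in each group, Pim1 3 WT and 1 ATM, Pax5 3 and 2, and Cd83 1 and 3. Early replicating fragile sites held 6 WT and 8 ATM junctions in 4 of 13 genes, with 4 tested and a median of 1.29. Long or late replicating genes held 26 and 11 in 15 of 22 genes, with 8 tested, 6 above 0 and a median of 0.03, and Nrxn3 on chromosome 12 made up 10 and 1 of these. Genes of the DNA damage response held 2 and 0 in 2 of 27 genes. None of these lists held a called gene, and 71 of all 162 genes lay above 0. Tested genes without a junction in the RP105 libraries, such as Birc3 and Cd79b, are fitted at 0 and enter the medians, so these say little.

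Most kinds of junction structure overlapped between the groups. Chance alone sets 3 against 3 libraries apart with probability 0.1 in each test, and every case without overlap is given here. The kinds were inserted bases, direct joins, and 1, 2 or 3, or 4 or more bases common to bait and prey. Each kind was tested outside chromosome 15, within 10 kb of the break, on chromosome 15 beyond 1 Mb and on chromosome 12 centromeric of Igh. Over that many tests, some cases without overlap can arise by chance alone. Structure was taken without CA starts, from reads with up to 110 bases of bait. Outside chromosome 15, bases were inserted between bait and prey in 19.9%, 13.3% and 18.3% of WT and 15.4%, 20.1% and 18.1% of ATM junctions. Bait and prey outside chromosome 15 joined directly in 17.0%, 17.9% and 20.5% against 20.1%, 20.1% and 21.5%. The groups overlapped in both kinds (exact permutation p = 0.7 and 0.3). An overlap of 2 or 3 bases (microhomology) was found outside chromosome 15 in 28.4%, 30.3% and 28.4% against 27.1%, 23.5% and 25.3%, with no overlap between the groups (exact permutation p = 0.1, adjusted p = 0.168). Within 10 kb of the break direct joins were 10.8%, 12.1% and 11.4% of WT and 7.45%, 7.98% and 8.10% of ATM junctions, again with no overlap (exact permutation p = 0.1, adjusted p = 0.168). Insertions there were 29.6%, 20.9% and 30.6% against 24.8%, 25.2% and 36.9%, which overlap. On chromosome 15 beyond 1 Mb an overlap of 4 or more bases was found in 14.8%, 14.5% and 13.6% of WT and 5.77%, 8.91% and 13.2% of ATM junctions, with no overlap between the groups (exact permutation p = 0.1, adjusted p = 0.168). These shares rest on as few as 52 junctions in a library, and ATM library 3 lay close to WT library 3.

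Set beside the anti-CD40 contrast, the RP105 contrast was opposite in direction in the chromosome 15 classes other than those within 1 Mb centromeric of the break. At 100 kb to 1 Mb centromeric the log2 differences were -1.75 under RP105 and 0.36 under anti-CD40, where the latter did not pass (edgeR adjusted p = 0.0701). Minus-strand junctions of that class lay below 0 in both contrasts, at -1.72 and -0.30. The telomeric classes from the break to 1 Mb rose under RP105 by 0.56, 1.03 and 1.03 and had anti-CD40 log2 differences of -0.62, -1.35 and -2.08, from the nearest class outward. The centromeric classes at 1 to 10 Mb and beyond 10 Mb were -2.66 and -2.89 under RP105 and 1.58 and 2.22 under anti-CD40, and the telomeric ones were -2.36 and -1.79 against 1.15 and 1.61. Of the 39 regions, 31 (79.5%) differed between the contrasts by the interaction in edgeR, with a median over the 39 of -1.95. Within 10 kb centromeric of the break neither contrast passed, with -0.22 and -0.13. The 3 anti-CD40 libraries with KU55933, read on MiSeq like the RP105 libraries, held 52.5%, 55.6% and 54.2% of their junctions within 1 Mb of the break (mean 54.1% ± 1.5), beside 54.5% in the ATM anti-CD40 libraries on 454 and 87.3% in the ATM RP105 libraries. On chromosome 12 centromeric of Igh they held 6.82% ± 0.26 of the junctions outside chromosome 15, beside 8.70% and 4.42%. Their chemical inhibition is not the deletion, and no MiSeq library of untreated WT cells under anti-CD40 was analysed here. Genotypes are as labelled, and label and stimulus cannot be told apart as sources of the opposite directions.

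**Figure D5:**
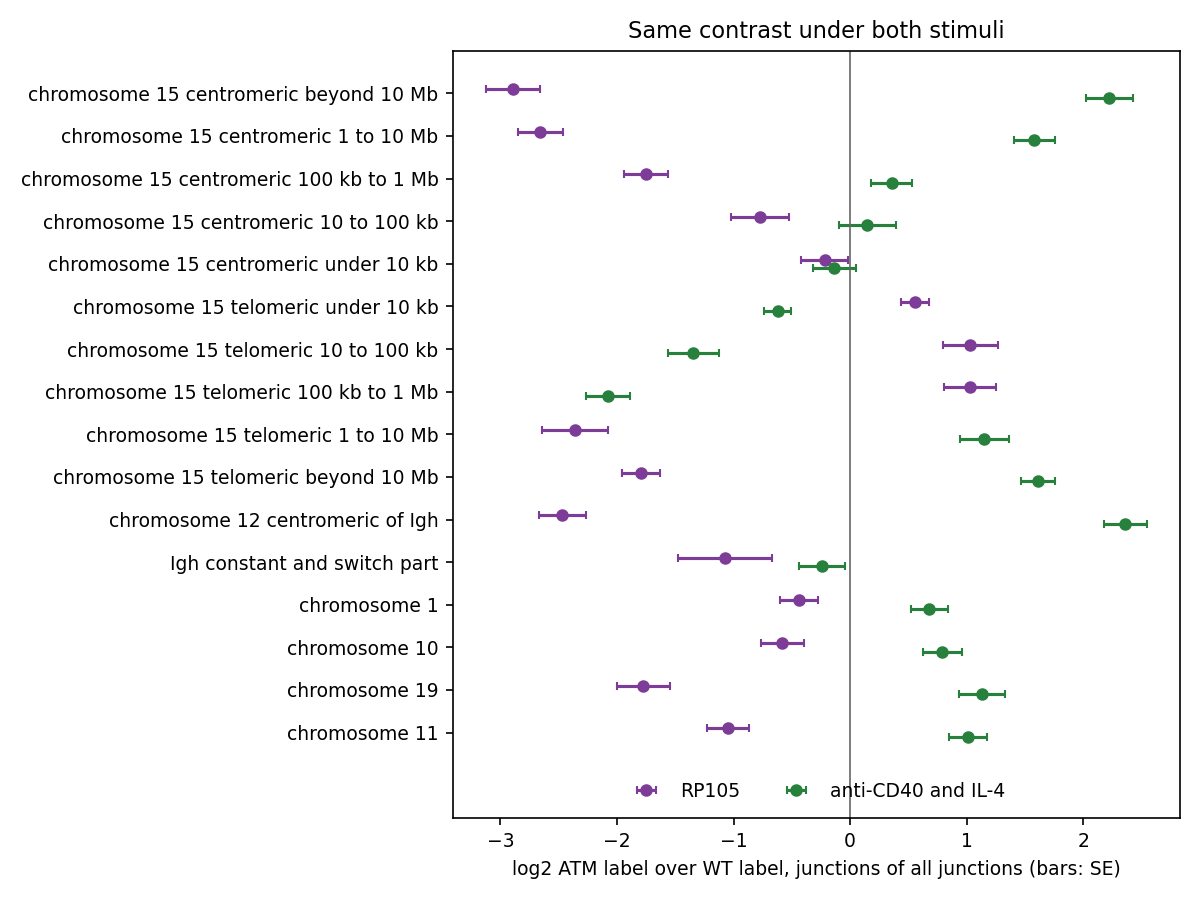
log2 difference of ATM over WT label, with all junctions as library size, for the chromosome 15 classes and named regions under RP105 and under anti-CD40 with IL4 (points with SE bars from edgeR). The points lie on opposite sides of 0 for the telomeric classes up to 1 Mb (0.56, 1.03 and 1.03 under RP105) and for all classes beyond 1 Mb.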

How the data were processed

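Each deposited file lists 1 junction a row with the prey position on mm9, the build per the labels; the authors' gene names were used, and 48.5% of RP105 junctions outside chromosome 15 have none. The units are counts of junctions and, per the file headers of the 454 files, a deposited read count per junction that was not used. The sources used here do not give the aligner, the filters or how copies were removed. Over all libraries 56 repeated rows, 3 mitochondrial rows and 1 broken row were left out, none of them in the RP105 libraries.

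Regions, 5 Mb bins (at least 20 junctions) and genes (at least 10) were fitted with edgeR 4.0.16 in R 4.3.3 over all 16 libraries, adjusted by Benjamini-Hochberg at 0.05, with DESeq2 1.42.0 as an alternative. SE is the log2 difference divided by the square root of F. Shares were compared by two-sided exact permutation tests. Locus ends come from junctions named for neighbouring genes, and the break from where plus and minus junctions part. The fits were tested on simulated data: of 4-fold changes, 31.0% were recovered in bins and 7.5% in genes. Named genes are the 12 with most junctions per group, the 10 on chromosome 15 beyond 1 Mb (1 of them is not reported here), those at an unadjusted p under 0.05 (up to 6 per direction) and up to 8 list members. The members and lists were chosen with earlier results of these data known. Alternatives were other scalings, library sizes, windows, bins and minimums, run or replicate number as a block, distinct positions, and each library left out; removal of shared or recurrent positions, values within a run and the split by strand were added after the data were seen.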

Additional observations from a re-analysis of the deposited data

Results flagged for a closer look

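The ATM minus WT difference under RP105 differed from that under anti-CD40 with IL4 in a test of the difference itself, the interaction in edgeR, for 31 of 39 regions with all junctions as library size and for 3 of 29 outside chromosome 15. The chromosome 15 classes of the former and all 3 of the latter are given here. All values here are log2 differences of RP105 minus anti-CD40 with IL4, and the stimuli also differ in instrument. Among junctions outside chromosome 15 it was 0.86 for chromosome 1, -2.85 for chromosome 12 centromeric of Igh and -0.94 for chromosome 19. With all junctions as library size, the chromosome 15 classes centromeric of the break gave -0.92 at 10 to 100 kb, -2.11 at 100 kb to 1 Mb, -4.24 at 1 to 10 Mb and -5.12 beyond 10 Mb. Those telomeric of the break gave 1.18 within 10 kb, 2.38 at 10 to 100 kb, 3.10 at 100 kb to 1 Mb, -3.51 at 1 to 10 Mb and -3.41 beyond 10 Mb. Among the 4 WT libraries under anti-CD40 with IL4, the one with 6.27 junctions per 1000 on chromosome 12 centromeric of Igh stood far from the other 3 for the range of the group. Chance sets about 1 group in 20 apart in this way, and several measures of this group were screened.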

How the results depend on the processing

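The share within 1 Mb of the break and the fall on chromosome 12 centromeric of Igh kept direction, and the latter its call, under every alternative run. The log2 difference of the latter lay between -1.49 and -0.98, and between -1.67 and -1.24 when 1 library was left out. The share difference lay between 22.2 and 27.5 percentage points. Of 29 regions outside chromosome 15, 4 passed; 2 did with sequencing run as a block, 2 without CA-repeat starts, 15 (11 higher, 4 lower) when only 1 Mb either side of the break was left out, and 2 to 3 when 1 library was left out (2 without WT library 1 or ATM library 2). Of all regions with chromosome 15, 32 passed, but 12 with TMM factors and 12 with DESeq2. Of the 5 Mb bins, 2 passed, but 4 with TMM factors, 1 with run as a block, 1 without CA-repeat starts, 11 (3 higher, 8 lower) when only 1 Mb was left out, 1 at 2 Mb, and 1 to 2 when 1 library was left out (1 without WT library 1 or ATM library 1).

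Directions turned in the chromosome 15 classes within 100 kb centromeric of the break. At 10 to 100 kb the log2 difference was 0.28 with TMM factors and 0.29 with DESeq2. Within 10 kb it was 0.87 with TMM factors, 0.87 with DESeq2, 0.081 with run as a block, 0.31 over distinct positions (plus strand alone 0.13), and -0.38 to 0.086 (without WT library 1) when 1 library was left out. The difference in inserted bases outside chromosome 15 was -0.14 points within the run of the replicate 3 libraries and -1.18 to 2.13 when 1 library was left out. The cause was not tested. Counted per distinct position, recurrent positions outside chromosome 15 turned from 3.61 (WT) and 2.75 (ATM) per 1000 to 5.71 and 5.98, and the mean rate of chromosome 1 turned too, since repeats near the break then leave the base.

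Same-numbered libraries deviated together weakly over 455 bins (correlations 0.02, 0.03 and 0.13). Few junctions fall in a bin, and counting noise alone can hold such correlations near 0. They therefore do not show whether the numbers pair the samples. With the replicate block the chromosome 12 value was -1.37, 4 regions, 32 regions with chromosome 15 and 2 bins passed, and the interaction was -2.87. Depth limits genes most, and 586 junctions outside chromosome 15 in ATM library 1 set the coarsest shares.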
